A study of Mus musculus with 45 samples.

Results

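The genes described are ribosome biogenesis genes: factors that transcribe, modify, cut and assemble the ribosomal RNA of both ribosomal subunits, together with Myc, a transcription factor of cell growth. They were chosen by gene symbol from a list of 41 names, which was drawn up with earlier results of these data known. Of these, 40 were found among the 23227 genes of the deposited count tables and all 40 passed the filter on low counts; Noc2l was not analysed here. The lowest count of any member in any library was 42, for Myc.

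The data were 45 mRNA libraries of liver from wild-type C57BL/6J mice, in 14 groups of 3 libraries, except 1 group with 6. All mice were killed at 24 weeks of age after an overnight fast. They had eaten chow throughout, a high-fat diet (HFD) for 6 weeks from 18 weeks of age, or HFD for 16 weeks from 8 weeks of age, so the length of HFD feeding and the age when it began cannot be told apart. Basal livers, without drug, came from all 3 diets. Livers taken 15, 30, 60 and 120 min after insulin (1 U/kg, injected into the peritoneum) were available for chow and for 16-week HFD, and the 30 min group on 16-week HFD had 6 libraries. Metformin, a glucose-lowering drug, was given in the drinking water at 270 mg/kg of lean mass per day on each diet. The design text speaks of at least 3 mice in each group. The tissue is whole liver, so fewer cells of a type and less RNA per cell cannot be told apart in any result below.

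Ribosomes are built in the nucleolus. RNA polymerase I transcribes a long precursor RNA, small nucleolar ribonucleoproteins (snoRNPs) guide methylation and pseudouridine formation on it, and large sets of assembly factors cut it and fold it into the small and the large subunit. The hepatocyte makes most of the plasma proteins, and its supply of ribosomes is known to follow feeding, fasting and growth signals.

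The sequences directly before the start of Nop58 and Nop56 are shown first because these genes encode the paired core proteins of box C/D snoRNPs and were among the members with the largest diet differences. They are the 250 bases before each start in RefSeq, build GRCm38.p6, on the plus strand, at chr1:59684756-59685005 for Nop58 and chr2:130274162-130274411 for Nop56. Capitals mark CCGGAA on either strand, a core of sites for ETS-family factors. The Nop58 stretch holds a match on each strand and the Nop56 stretch holds none.
Nop58: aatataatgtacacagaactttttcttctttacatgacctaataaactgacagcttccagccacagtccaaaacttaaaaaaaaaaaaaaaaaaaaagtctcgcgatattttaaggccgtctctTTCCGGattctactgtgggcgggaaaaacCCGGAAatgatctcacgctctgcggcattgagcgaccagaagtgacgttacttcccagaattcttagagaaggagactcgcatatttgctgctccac
Nop56: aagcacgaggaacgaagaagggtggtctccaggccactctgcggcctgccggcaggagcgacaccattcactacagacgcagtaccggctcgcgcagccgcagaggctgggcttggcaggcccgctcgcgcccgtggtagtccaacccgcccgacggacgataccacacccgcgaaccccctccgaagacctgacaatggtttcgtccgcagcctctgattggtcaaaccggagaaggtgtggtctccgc

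CACGTG, the E-box that Myc and related factors bind, was searched for because Myc is a member. RefSeq promoter windows of 300 bases, 250 before and 50 after the start, were found for 33 of the 40 members. CACGTG, which reads the same on both strands, occurred in 8 of these 33 windows (24.2%) and in 8.1% of the windows of all 27025 genes. CCGGAA on either strand occurred in 16 of the 33 (48.5%) and in 16.7% of all genes. All genes here include genes not tested in these livers, and shares among the genes tested are not given. The gaps are therefore not shown to be particular to the members. The 2 motifs cannot overlap each other, while CCGGAA on 1 strand can share its central bases with CCGGAA on the other. The E-box matches of 3 members that were lower on 16-week HFD in all 5 comparisons described below are printed with their surroundings, 30 bases each, from chr17:71616220-71616249 (plus strand), chr10:13193092-13193121 (minus strand) and chr11:74898092-74898121 (plus strand) of GRCm38.p6, with the motif in capitals.
Wdr43: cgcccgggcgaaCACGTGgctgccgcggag
Ltv1: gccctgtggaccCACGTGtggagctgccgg
Tsr1: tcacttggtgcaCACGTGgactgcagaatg
Matches were also found for Mybbp1a, Rrn3, Pes1, Nop2 and Grwd1. That of Rrn3, an initiation factor of RNA polymerase I, is shown because its window alone held 2 matches, at chr16:13780472-13780501 and chr16:13780639-13780668 on the plus strand. Both Rrn3 matches lie before the start, and upstream and downstream give only their order. In 6 of the 8 members, Wdr43, Ltv1 and Tsr1 among them, the match lies after the start.
Rrn3, upstream match: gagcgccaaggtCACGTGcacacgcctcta
Rrn3, downstream match: ttacgctctgctCACGTGggccgcgtcccg

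Levels per kb of exon, as CPM (counts scaled to a common library size) averaged over the 45 libraries, spanned a wide range. The median member stood at 6.66 CPM per kb. The highest level was that of Npm1, a histone chaperone and nucleolar scaffold protein, at 74.9. Ncl (nucleolin), at 24.2, and Fbl (fibrillarin, the RNA methyltransferase of box C/D snoRNPs), at 23.8, followed. The lowest levels per kb were those of Rrp1b, a nucleolar processing factor, at 1.11 and of Polr1e, a subunit of RNA polymerase I, at 1.3. The ratio of the highest to the lowest of the 45 libraries had a median of 1.98 over the members. The ratio was 23 for Myc, 3.46 for Nhp2, 2.94 for Nop56 and 2.83 for Nop58, and it was lowest for Pes1, at 1.38.

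Library totals ran from 18193181 to 50253493 counts. Each of 54 pairs of replicates within a group differed by more than counting noise, so none was treated as the same preparation read again. Such an excess cannot tell separate mice from separate preparations of 1 mouse. Hepatocyte markers summed to between 89200 and 145000 CPM in the basal and metformin libraries of chow and 16-week HFD, so the defining markers of the labelled tissue were present. Pancreatic acinar genes were present in some libraries and reached 19000 CPM in 1 library (16-week HFD, 15 min, replicate 3), whose median member deviation of -0.16 lay beside the -0.11 and -0.15 of the other libraries of its group. Other values that move with a comparison are given beside it.

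As a description of all libraries, each member's log2 CPM was set against its own mean over the 45 libraries, and the median over the members was taken in each library. In the 18 chow libraries this median ran from -0.02 to 0.28. In the 6 libraries of 6-week HFD it ran from -0.08 to 0.01. In the 21 libraries of 16-week HFD it ran from -0.2 to 0.13, and the highest value there came from a metformin library.

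**Figure D1:**
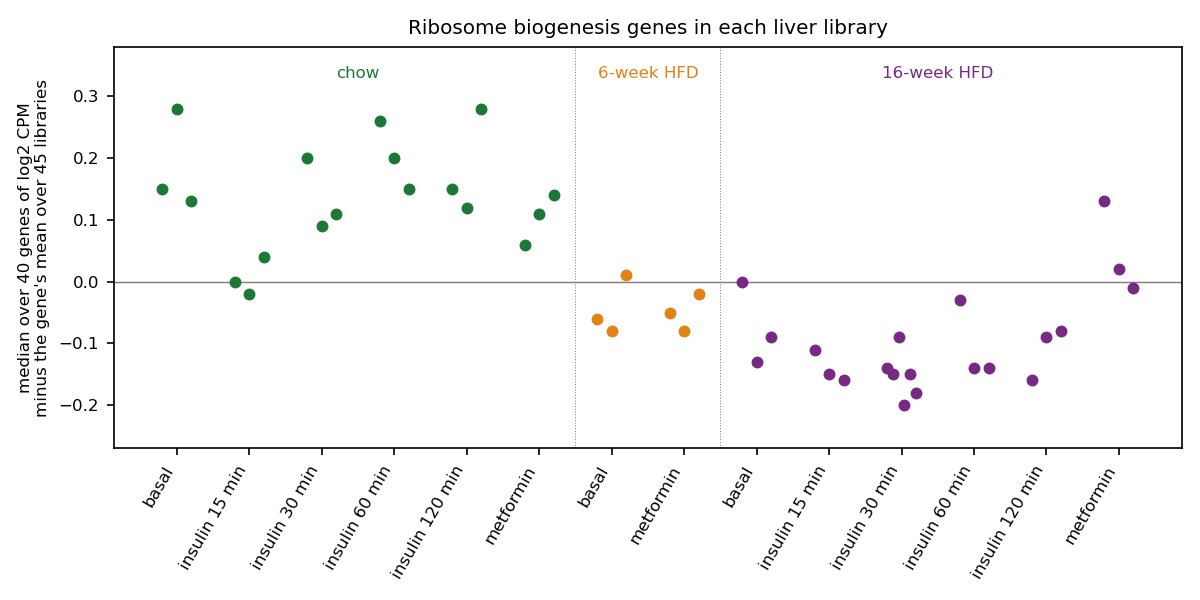
Median log2 deviation of the members from their own 45-library means (y axis), 1 point per library, by group (x axis) and coloured by diet. Chow libraries lie between -0.02 and 0.28, libraries of 6-week HFD between -0.08 and 0.01, and those of 16-week HFD between -0.2 and 0.13.

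The first question was how the basal fasted liver differed between 16-week HFD and chow. Of the 7 snoRNP members 2 were lower on 16-week HFD, Nop58 and Nop56, and so were all 5 nucleolar proteins with several roles and several assembly factors, most of all Tsr1, Wdr43, Gnl3 and Ltv1. The 4 polymerase subunits and fibrillarin were not called. Of the 40 members, 18 were lower and 2 higher by edgeR's quasi-likelihood test at a false discovery rate of 0.05. Among all 14067 genes tested, 16.3% were lower and 16% higher. The median log2 difference of the members was -0.25, and that of all genes was 0.02.

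Nop58, a core protein of box C/D snoRNPs, stood at 28.7, 36.3 and 29.5 CPM in the 3 chow libraries and at 15.4, 15.5 and 14.8 CPM on 16-week HFD. The groups did not overlap, and the lowest chow library was well above the highest HFD library. The log2 difference was -1.05 ± 0.11 (SE), with an adjusted p of 2.8e-08. Nop56, its partner in the same particle, had 28.9, 30.9 and 25.3 CPM on chow and 18, 13.8 and 14.2 CPM on 16-week HFD, again without overlap (log2 -0.89 ± 0.15, adjusted p = 1.85e-05). Fbl, the third protein of that core, did not follow them in basal livers. Its log2 difference was 0.05, with 27.8, 25.3 and 25.1 CPM on chow against 29.2, 25.8 and 25.6 CPM on HFD, and the groups overlapped. In the box H/ACA class, whose particles guide pseudouridine formation, none of 4 members was called. Gar1 had the largest difference there (log2 -0.42, adjusted p = 0.0779), followed by Nhp2 at -0.35 and Dkc1, the pseudouridine synthase, at -0.25.

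All 5 nucleolar proteins with several roles were lower. Gnl3 (nucleostemin), a nucleolar GTPase, had 36.6, 45.4 and 38.2 CPM on chow and 24.9, 23.1 and 26 CPM on 16-week HFD. Its groups did not overlap, and the log2 difference was -0.70 ± 0.10 with an adjusted p of 2.36e-06. The RNA helicase Ddx21 differed by -0.54, nucleolin by -0.46, Npm1 by -0.43 and Mybbp1a, a Myb-binding nucleolar protein, by -0.32. In the RNA polymerase I class, 1 of 6 members was lower: Ubtf, the upstream binding factor of ribosomal DNA, at -0.25. The polymerase subunits themselves had smaller values, with -0.08 for Polr1a (the largest subunit), -0.16 for Polr1b, -0.20 for Polr1c and -0.11 for Polr1e, none of them called.

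The small subunit class split. Wdr43, a component of the early processome, had 34.4, 36.1 and 33.7 CPM on chow and 21.2, 20.3 and 22.6 CPM on 16-week HFD, which is the smallest adjusted p of the members (log2 -0.70 ± 0.08, adjusted p = 2.78e-08). Its replicates lay close together in both groups. Tsr1, a late factor that resembles a GTPase, differed by -0.89 ± 0.13 and Ltv1, a factor of late maturation and export, by -0.70 ± 0.11. The class also held the only 2 members that were higher: Nol6 (log2 0.37, adjusted p = 0.0278) and Rrp9 (log2 0.37, adjusted p = 0.0465). Of its 11 members 7 were lower, and Bysl was near 0 at 0.03. In the large subunit class 3 of 10 were lower: Rrp1b at -0.62, Noc3l at -0.30 and Pes1, of the PeBoW complex, at -0.25.

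Without chow basal replicate 2 the total fell to 10 members called, and without replicate 2 of basal 16-week HFD to 11. Without chow basal replicate 2 or 3, or replicate 1 of basal 16-week HFD, 0 members were higher. Without each other library of the groups 1 was higher. Correlations of library values with gene GC content differed between the groups: the chow libraries had Spearman values from -0.29 to -0.08 and the HFD libraries from 0.17 to 0.32. After removal of trends with GC content and exon length, 23 members were lower and 0 higher. Of all genes 30.8% were then called, in either direction. The calls of Nol6, Rrp9, nucleolin (-0.25, adjusted p = 0.202) and Noc3l (-0.16, adjusted p = 0.227) were lost. Polr1c (-0.29, adjusted p = 0.0363), Gar1 (-0.57, adjusted p = 0.0167), Nhp2 (-0.42, adjusted p = 0.00405), Bop1, Grwd1, Noc4l and Nop2 were called lower in that fit. Acinar markers summed to between 292 and 1810 CPM on chow and to between 9.88 and 179 CPM on HFD, with none of 12 called. Skeletal muscle markers summed to between 0.637 and 155 CPM on chow and to between 0.353 and 0.968 CPM on HFD, with 5 of 7 called lower, and 4 of 9 stellate markers were called higher and 1 lower (311 to 326 CPM on chow, 204 to 482 on HFD). In this comparison 0 markers of macrophages (258 to 474 CPM on chow, 310 to 577 on HFD), lymphocytes, neutrophils and cholangiocytes were called, and 1 of 8 endothelial markers was higher. The part of these markers in the result was not tested.

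**Figure D2:**
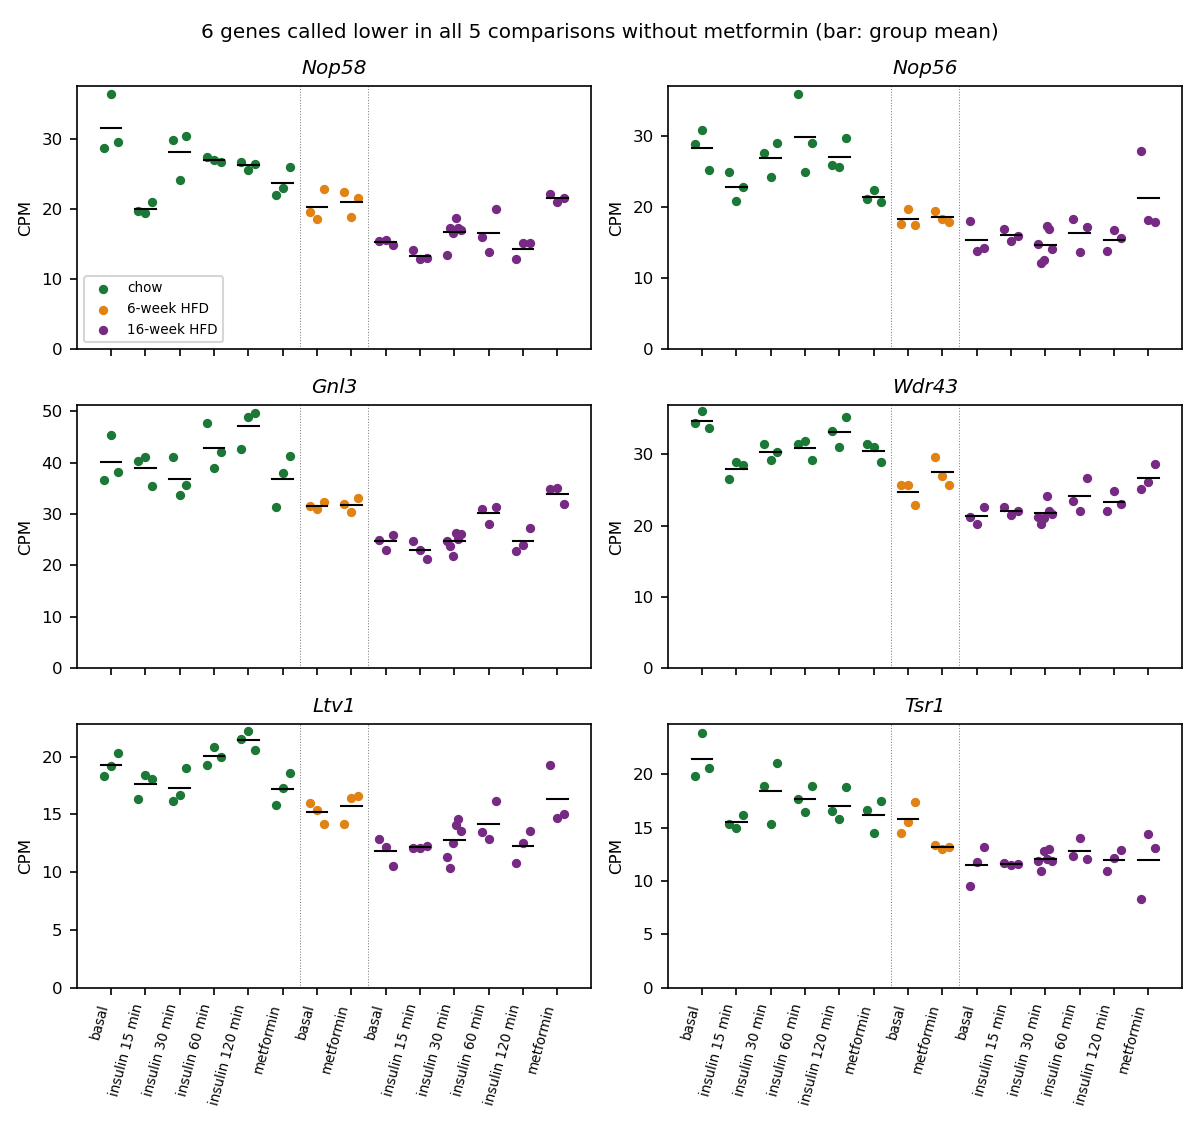
CPM (y axis, from 0) of Nop58, Nop56, Gnl3, Wdr43, Ltv1 and Tsr1 in every library, by group (x axis), with 1 point per library and a bar at the group mean. In basal livers the libraries of 16-week HFD lie below all chow libraries for Nop58, Nop56, Gnl3 and Wdr43, and in the metformin groups the gap is smaller.

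The same diet contrast was then read at each time after insulin. These comparisons use other libraries than the basal one, so they are repeats of it in separate groups, each with insulin on both sides. At 15 min 10 members were lower and 1 higher (12.2% of all genes lower, 12.3% higher). At 30 min 23 were lower and 0 higher (17.2% and 20.1%), at 60 min 20 and 0 (11.5% and 10.9%), and at 120 min 18 and 0 (13.6% and 14.5%). The members' median log2 difference was -0.10, -0.30, -0.31 and -0.27 in turn.

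At 15 min Gnl3 had the smallest adjusted p, with 40.3, 41 and 35.5 CPM on chow against 24.8, 23 and 21.2 CPM on 16-week HFD (log2 -0.76 ± 0.10, adjusted p = 3.06e-06). Nucleolin followed with 230, 218 and 251 CPM against 153, 168 and 156 CPM (log2 -0.55), and Npm1 with 144, 148 and 156 CPM against 99.1, 111 and 96.2 CPM (log2 -0.55). The groups did not overlap for any of these nucleolar proteins. Nol6, a small subunit processome protein, was the member called higher (log2 0.49, adjusted p = 0.00544). That call was lost with length and GC trends removed (0.30, adjusted p = 0.0528).

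At 30 min Nop58 led. Its chow libraries had 29.8, 24.1 and 30.4 CPM, and the HFD libraries had 13.4, 17.3, 16.5, 18.7, 17.3 and 17 CPM in replicates 1 to 6 (log2 -0.75 ± 0.10, adjusted p = 4.07e-07). The highest HFD library was below the lowest chow library. Wdr43 had 31.4, 29.2 and 30.3 CPM on chow and between 20.3 and 24.2 CPM on HFD (log2 -0.48 ± 0.06), and Nop56 had 27.6, 24.3 and 29 CPM on chow and between 12.2 and 17.3 CPM on HFD (log2 -0.88 ± 0.12). Neither overlapped. The 6 HFD libraries fell into replicates 1 to 3 and replicates 4 to 6 by their correlation with GC content (0.19 to 0.22 and -0.22 to -0.13). Nop58 stood at 13.4 to 17.3 CPM in the former and at 17 to 18.7 CPM in the latter. The labels do not say whether the 6 libraries are from separate mice, and the fit took them as independent. Without replicates 4 to 6, 17 members were lower and 1 higher, with 40.7% of all genes called in either direction.

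At 60 min Nop58 had 27.4, 27 and 26.6 CPM on chow and 16, 13.8 and 19.9 CPM on HFD (log2 -0.70, adjusted p = 3.48e-05). Rrp12, which acts in small subunit maturation and export, had 15.7, 15.2 and 14 CPM against 11.1, 9.15 and 8.05 CPM (log2 -0.67), and Nop56 had 35.9, 25 and 29 CPM against 18.3, 13.7 and 17.2 CPM (log2 -0.87). None of these overlapped. At 120 min Gnl3 had 42.7, 48.9 and 49.7 CPM on chow and 22.8, 23.9 and 27.3 CPM on HFD (log2 -0.93 ± 0.10, adjusted p = 7.4e-08), the largest difference of this gene in the 5 comparisons. Nop58 had 26.6, 25.5 and 26.4 CPM against 12.8, 15.1 and 15.1 CPM (log2 -0.87), and Ltv1 had 21.5, 22.2 and 20.6 CPM against 10.8, 12.5 and 13.6 CPM (log2 -0.80). Each of these was again without overlap between the diets. Macrophage markers were called higher on HFD for 4 of 10 at 15 min, 9 at 30 min, 1 at 60 min and 7 at 120 min, and cell cycle genes for 12 of 20 at 30 min and 11 of 20 at 120 min; their part in these results was not tested.

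Over the basal and the 4 insulin comparisons, 9 members were lower on 16-week HFD each time: Nop58, Nop56, Ncl, Npm1, Gnl3, Ddx21, Wdr43, Ltv1 and Tsr1. Of all genes tested 662, or 4.71%, were lower in all 5. Lower in none of the 5 were 72.3% of all genes tested, and among the members another 10. These held fibrillarin, Dkc1 and Gar1 of the snoRNPs, the polymerase subunits Polr1a, Polr1b and Polr1e, the processome genes Nol6 and Rrp9, the large subunit factor Nop16, and Myc. The remaining 21 were lower in 1 to 4, where the shares of all genes were 9.8%, 5.39%, 4.4% and 3.38% in turn. Ubtf, Mybbp1a and Rrp12 were each lower in 4.

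The range over the 5 comparisons was -1.05 to -0.59 for Nop58, -0.89 to -0.52 for Nop56 and -0.93 to -0.51 for Gnl3. It was -0.23 to 0.05 for Fbl, -0.08 to 0.20 for Polr1a and -0.20 to 0.02 for Polr1b. Within the box C/D core the 2 scaffold proteins and the methyltransferase therefore had ranges that did not meet. This gap between genes was not tested. At 120 min after insulin Fbl ran from 28.4 to 30.8 CPM on chow and from 24.6 to 26.4 CPM on 16-week HFD, without overlap. A fit of only the groups compared called Fbl lower at that time.

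**Figure D3:**
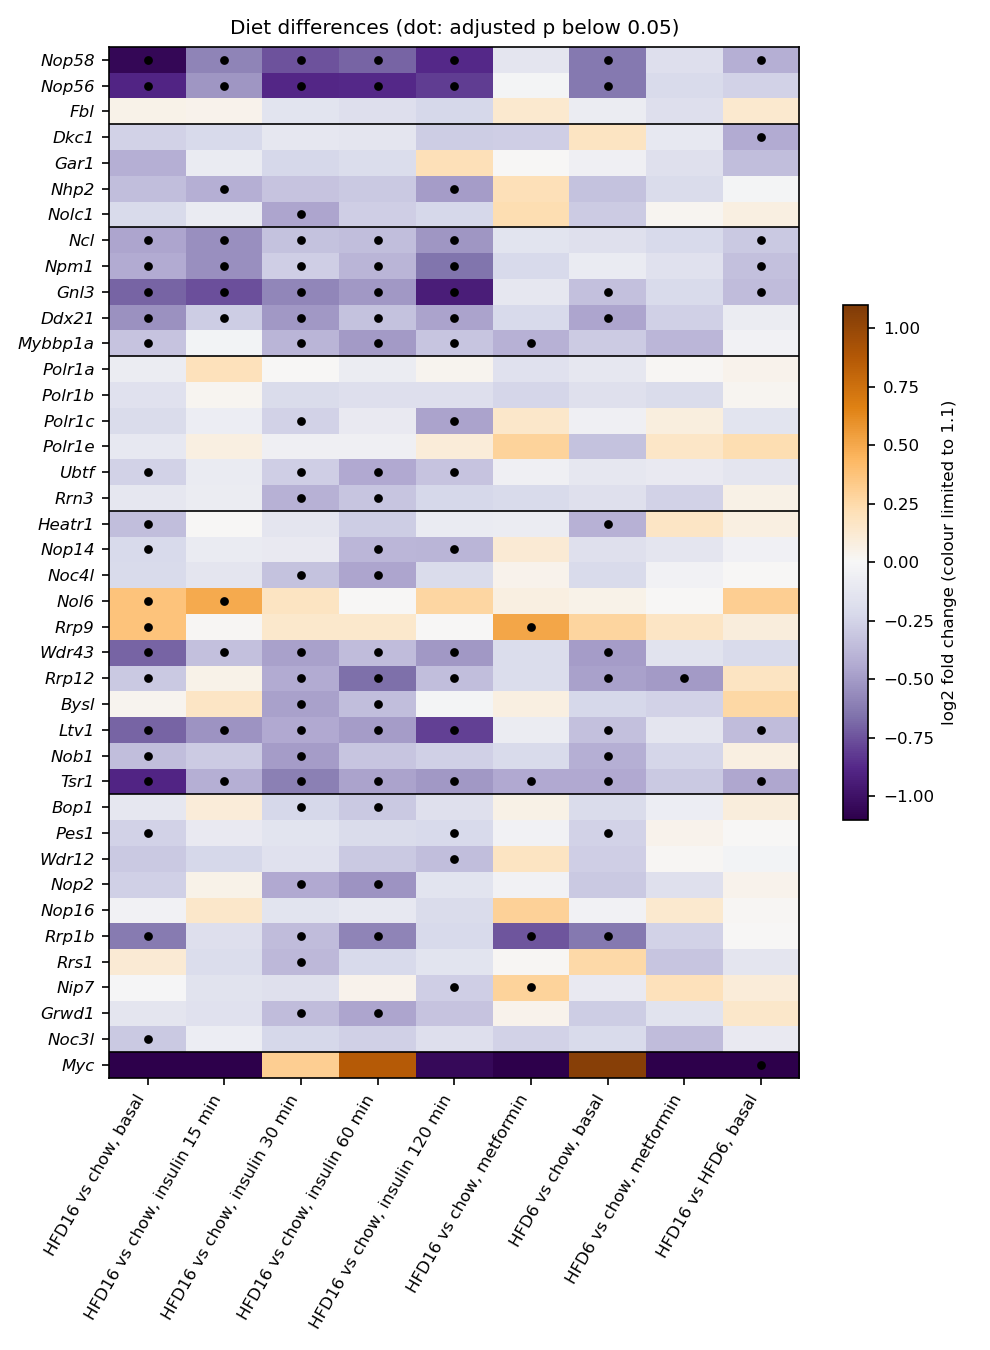
Log2 difference between diets (colour, purple lower and orange higher, limited to 1.1 on the log2 scale) for each member (rows, with lines between roles). The first 6 columns set 16-week HFD against chow in basal, insulin and metformin livers, the others set 6-week HFD against chow and 16-week against 6-week HFD, and dots mark adjusted p below 0.05. Nop58, Nop56, Gnl3, Wdr43, Ltv1, Tsr1, Ncl, Npm1 and Ddx21 are purple with a dot in the first 5 columns.

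The 9 repeatedly lower genes were looked at for what the list did not use. In the deposited mm9 gene models Nop58 lies at chr1:59741850-59768354 on the plus strand, with 15 exons, and its introns hold the box C/D snoRNA genes Snord70 and Snord11. Nop56 (chr2:130100148-130105049, plus strand) holds Snord110 and Snord57, Gnl3 (chr14:31825619-31832275, minus strand) holds Snord69 and Snord19, and Wdr43 (chr17:71965555-72008371, plus strand) holds Snord92 and Snord53. Ncl holds Snora75 and Snord82, and Tsr1 holds Snord91a. Ltv1, Npm1 and Ddx21 had no such gene within introns. The shares of the other members and of all genes that hold snoRNA genes are not given here. Such introns are therefore not shown to be particular to the repeatedly lower genes. The libraries were made from polyA RNA, so the snoRNAs themselves were not read. CACGTG occurred in 3 of the 8 windows found for the repeatedly lower genes (37.5%) and in 0 of 7 found for the members lower in none, and CCGGAA occurred in 37.5% and 42.9%. These differences between few windows were not tested.

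Tsr1 is the least certain of them, because 1159 bases of its exons overlap exons of Srr on the opposite strand and 30.91% of its 40-base words occur in other transcripts. The kit did not mark strand, so reads of both genes cannot be told apart there. Npm1 shares 26.61% of its words, Pes1 28.74%, Fbl 20.7% and Nop56 20.56%, mostly with pseudogene-like copies, and their values are uncertain to that extent. The shared share was 2.79% for Nop58, 0.46% for Wdr43 and 0 for Ltv1.

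The shorter diet was read next. After 6 weeks of HFD 12 members were lower in basal livers and 0 higher than on chow, with 5.03% of all genes lower and 5.98% higher, and the members' median log2 difference was -0.22. Wdr43 had 25.7, 25.7 and 22.9 CPM against 34.4, 36.1 and 33.7 CPM on chow (log2 -0.49 ± 0.07, adjusted p = 3.91e-05). Nop58 had 19.6, 18.5 and 22.8 CPM (log2 -0.63 ± 0.11, adjusted p = 0.000242), and Nop56 had 17.6, 19.8 and 17.5 CPM (log2 -0.63 ± 0.14, adjusted p = 0.00336), below all chow libraries given above. Nop58 and Nop56 lay below their chow libraries by nearly equal log2 values. The other lower members were Ddx21, Rrp1b, Rrp12, Heatr1 (a processome and polymerase I transcription factor), Nob1 (the nuclease that makes the final cut of small subunit RNA), Gnl3, Tsr1, Pes1 and Ltv1. Leaving out chow basal replicate 2, or replicate 1 or 2 of basal 6-week HFD, left 6 calls each. Both HFD comparisons in basal livers use the same chow libraries, so their values are not independent. Acinar markers summed to between 13 and 147 CPM and skeletal muscle markers to between 3.8 and 1280 CPM on 6-week HFD, against the chow values above; their part was not tested.

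Set directly against 6-week HFD, 16-week HFD had 8 members lower and 0 higher (6.03% and 4.18% of all genes), with a median member difference of -0.01. Nop58 went from 19.6, 18.5 and 22.8 CPM to 15.4, 15.5 and 14.8 CPM (log2 -0.42, adjusted p = 0.0161). Gnl3 had 31.5, 30.9 and 32.4 CPM at 6 weeks and 24.9, 23.1 and 26 CPM at 16 weeks (log2 -0.36, adjusted p = 0.0188), and Dkc1 had 18.5, 17.6 and 16.5 CPM against 13.7, 13.8 and 11.4 CPM (log2 -0.43, adjusted p = 0.0188). The groups did not overlap for these genes. Tsr1, Npm1, Ltv1, nucleolin and Myc were the others. Leaving out 1 library lowered the count to between 2 and 5 for each of replicates 1 to 3 of basal 6-week HFD and replicates 2 and 3 of basal 16-week HFD. Myc had 2.37, 2.76 and 49.3 CPM at 6 weeks, so its call (log2 -2.17, adjusted p = 0.0459) rests on replicate 3, without which the difference was 0.66 with an adjusted p of 0.538. With length and GC trends removed 4 members were called, Gnl3, Ltv1, Tsr1 and Myc, and the calls of Nop58 (-0.28, adjusted p = 0.107), Dkc1 (-0.33, adjusted p = 0.0586), nucleolin and Npm1 were lost. That fit called 6.62% of all genes, in either direction.

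Insulin was compared with the basal group of the same diet. Those basal libraries also served the basal diet and the metformin comparisons, so values in these comparisons are not independent. On chow at 15 min 4 members were lower and 0 higher (0.448% of all genes lower, 0.682% higher), with a member median of -0.21. Nop58 fell from 28.7, 36.3 and 29.5 CPM to 19.7, 19.4 and 21 CPM (log2 -0.65 ± 0.11, adjusted p = 0.00196). Rrp12 fell from 14.3, 13.7 and 12.7 CPM to 10.1, 9.18 and 8.74 CPM (log2 -0.54, adjusted p = 0.00946), and Wdr43 to 26.5, 29 and 28.5 CPM (log2 -0.31, adjusted p = 0.0306). None of these groups overlapped. Heatr1 was the other (log2 -0.46). Leaving out any single library of the 2 groups left 1 or 2 of the 4 calls.

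The later chow times had fewer calls. At 30 min 0 members were called (0.00711% of all genes lower, 0.064% higher), with 4 at an unadjusted p below 0.05 and 0 by DESeq2. Nop58 was at 29.8, 24.1 and 30.4 CPM, a log2 value of -0.17 against basal. At 60 min Rrs1, a large subunit assembly factor, was higher, with 26.2, 22 and 23.1 CPM against 17.2, 17.8 and 15.2 CPM (log2 0.50, adjusted p = 0.0207; 0.96% of all genes higher, 0.427% lower). At 120 min Rrp1b was lower, with 5.55, 5.34 and 6.67 CPM against 7.97, 9.24 and 7.59 CPM (log2 -0.50; 2.64% lower, 2.43% higher). The group mean of Rrp1b was 8.27 CPM in basal chow livers and from 3.43 to 6.91 CPM in all other groups. Both calls were lost without single libraries: Rrs1 without any chow basal library or without replicate 1 or 3 at 60 min, and Rrp1b without chow basal replicate 1 or 2 or without replicate 1 or 2 at 120 min.

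On 16-week HFD Bysl, a small subunit factor, was the 1 member called, at 30 min. It had 16.6, 16.5 and 16 CPM in basal livers, and the 6 libraries at 30 min ran from 10.9 to 12.9 CPM (log2 -0.44; 1.77% of all genes lower, 1.78% higher). The call was lost without basal replicate 1 or 2. At 15, 60 and 120 min 0 members were called, where 0%, 0.00711% and 0% of all genes were higher and 0% at each time lower. At an unadjusted p below 0.05 there were 1, 3 and 1 members, and DESeq2 called 0. Nop58 stood at 14.1, 12.9 and 13 CPM at 15 min, a log2 value of -0.19 against basal HFD.

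Whether the response to insulin differed between the diets was tested as an interaction at each time. No member was called at 15, 30, 60 or 120 min, with 6, 4, 5 and 3 at an unadjusted p below 0.05 and 0 by DESeq2. Of all genes 0%, 0%, 0% and 0.427% had a higher response on HFD, and 0.00711%, 0%, 0% and 0.412% a lower one. For Nop58 at 15 min the interaction was 0.46 ± 0.16, with an adjusted p of 0.579, so a difference in its response was not shown. Polr1b, a subunit of the polymerase, had 22.2, 25.5 and 18.7 CPM in basal chow livers, and 18.8, 20.1 and 18.7 CPM at 15 min, 24.3, 22.7 and 19.9 CPM at 30 min, 17.8, 24.2 and 20.8 CPM at 60 min, and 20.7, 20.8 and 23.2 CPM at 120 min. On 16-week HFD it had 21.9, 18.9 and 18.8 CPM in basal livers, 19.5, 19.9 and 19 CPM at 15 min, from 16.6 to 24.1 CPM in the 6 libraries at 30 min, 20.5, 18.2 and 17 CPM at 60 min, and 18.6, 18.7 and 19.6 CPM at 120 min. The groups overlapped broadly and it was not called at any time on either diet, with log2 values from -0.21 to 0.01 on chow and from -0.10 to -0.03 on 16-week HFD.

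Myc was the most variable member, and none of its insulin differences was called in the fit of all libraries. On chow it had 8.72, 8.01 and 9.39 CPM in basal livers, 2.14, 19.3 and 13.8 CPM at 15 min, 4.07, 3.67 and 2.82 CPM at 30 min, 6.46, 4.74 and 3.77 CPM at 60 min, and 12.1, 13.5 and 11.8 CPM at 120 min. The log2 values against basal were 0.44, -1.30, -0.80 and 0.52 in turn. The libraries at 15 min scattered widely, while those at 30 min lay below and those at 120 min above the basal ones without overlap. A fit of only the groups compared called Myc lower at 30 min and higher at 120 min on chow. On 16-week HFD the basal libraries had 6.59, 2.99 and 2.6 CPM, those at 15 min 3.52, 3.95 and 3.39 CPM, the 6 at 30 min from 2.3 to 8.92 CPM, those at 60 min 10.9, 2.61 and 13.6 CPM, and those at 120 min 6.84, 5.73 and 5.58 CPM. Each of these groups overlapped the basal one. Myc was not called in the basal diet comparison (log2 -1.11 ± 0.71, adjusted p = 0.246), whereas a fit of only the groups compared called it lower on 16-week HFD in basal livers and at 120 min.

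**Figure D4:**
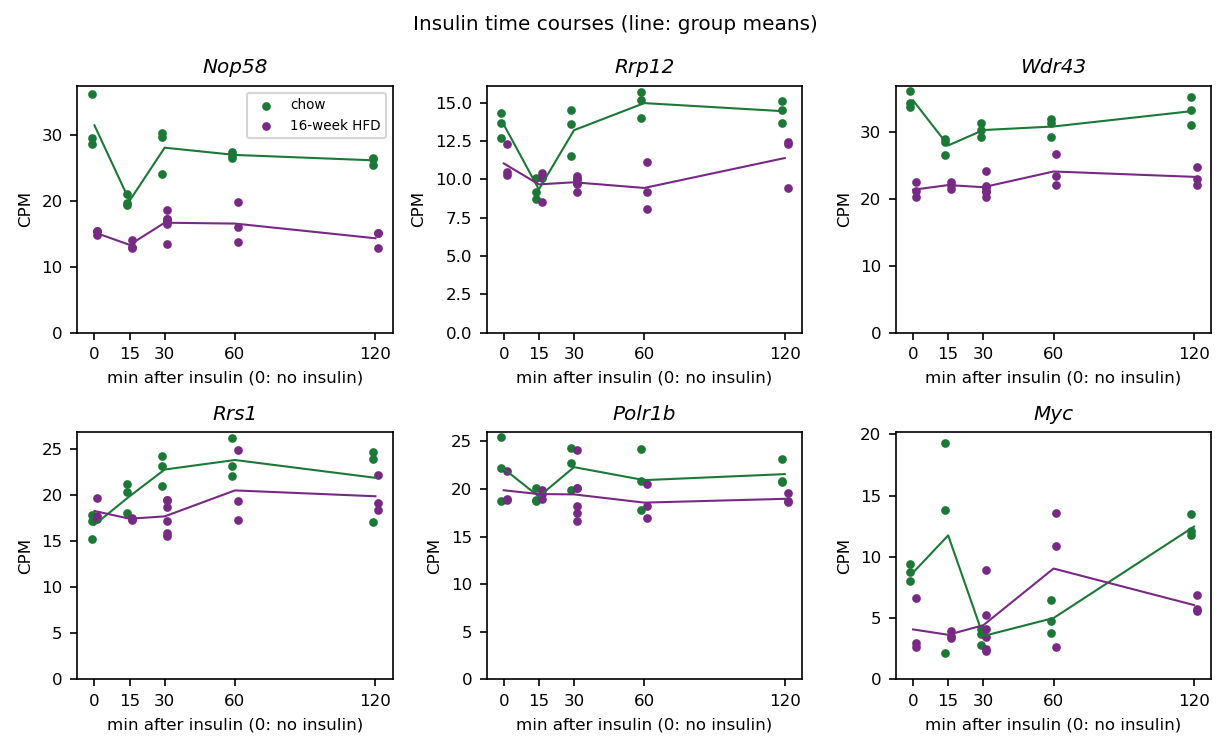
CPM (y axis) of Nop58, Rrp12, Wdr43, Rrs1, Polr1b and Myc against min after insulin (x axis, 0 being the basal group) on chow and 16-week HFD, with 1 point per library and lines through the group means. Nop58 on chow dips from 28.7 to 36.3 CPM in basal libraries to 19.4 to 21 CPM at 15 min, and on 16-week HFD it stays below 20 CPM at every time.

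Metformin was compared with the basal group of the same diet. On 16-week HFD 14 members were higher and 5 lower, with 16.9% of all genes higher and 11.5% lower. Nhp2, of the box H/ACA core, rose from 15.3, 12.2 and 14 CPM to 37.7, 19.7 and 21.3 CPM (log2 0.92 ± 0.15, adjusted p = 6.97e-05). Polr1c, a subunit shared by polymerases I and III, rose from 14.7, 12.9 and 12.3 CPM to 21.6, 17.4 and 17.5 CPM (log2 0.50, adjusted p = 0.000616), and Gnl3 from 24.9, 23.1 and 26 CPM to 34.9, 35.1 and 31.9 CPM (log2 0.46, adjusted p = 0.000941). The groups did not overlap, and for Nhp2 and Polr1c metformin replicate 1 was well above the other libraries.

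The other members called higher were led by Nop58, at 22.1, 21 and 21.5 CPM (log2 0.50 ± 0.11), which lies between the basal libraries of that diet and those of chow. Nop56 differed by 0.47, nucleolin by 0.42, Npm1 by 0.44, Wdr43 by 0.32 and Ltv1 by 0.46. The basal diet comparison uses the same basal HFD libraries, so the values of these genes in both comparisons are not independent. Gar1 (0.69), Fbl (0.41), Wdr12 (0.40), Nip7 (0.25) and Bop1 (0.27) completed the higher members. Rrp1b (-0.64), Polr1a (-0.44), Nol6 (-0.43), Heatr1 (-0.34) and Rrn3 (-0.31) were lower. In this fit the RNA polymerase I class thus held called members in both directions. With length and GC trends removed Polr1a (-0.12, adjusted p = 0.423), Rrn3 (-0.25, adjusted p = 0.0661) and Polr1c (0.26, adjusted p = 0.0903) were not called. Ubtf was then called higher (0.48, adjusted p = 0.000421).

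The count of calls changed with the library and the correction used. Without metformin replicate 1, 6 members were higher (Gar1, Gnl3, Nhp2, Nop58, Polr1c and Wdr43) and 1 lower (Rrp1b). The correlation of library values with exon length was -0.61 in that library and -0.27 and -0.34 in the others of its group, and it ran from -0.22 to 0.29 in the 36 libraries without metformin. After removal of length and GC trends 5 members were higher (Bop1, Ncl, Nhp2, Ubtf and Wdr43) and 0 lower. Of all genes 15.8% were called in that fit, in either direction. Nop58 then stood at 0.23 with an adjusted p of 0.148. With a block for the replicate number added to that fit, 7 members were higher, and 16.6% of all genes were called. A fit of only these 2 groups called 0 members and 0.109% of all genes. Endothelial markers were lower with metformin for 4 of 8 (213 to 367 CPM in basal and 164 to 222 CPM in metformin libraries), stellate markers for 5 of 9, and hepatocyte markers higher for 4 of 10; their part was not tested.

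On chow metformin gave 3 lower members and 0 higher (0.668% of all genes lower, 1.27% higher). Heatr1 fell from 29.1, 37 and 30.3 CPM to 20.8, 21.4 and 21.1 CPM (log2 -0.60 ± 0.11, adjusted p = 0.00173). Its group mean was 32.1 CPM in basal chow livers and from 20 to 26.8 CPM in all other groups. The basal diet and chow insulin comparisons use the same basal chow libraries, so the calls of Heatr1 there are not independent of this one. Nolc1, a chaperone of snoRNPs, went from 37.9, 42.7 and 33.4 CPM to 33.3, 27.9 and 24.8 CPM (log2 -0.41, adjusted p = 0.0387), and Nop58 to 21.9, 23 and 25.9 CPM (log2 -0.42, adjusted p = 0.043). The groups did not overlap for any of these, although for Nolc1 only by 33.4 against 33.3 CPM. Acinar markers summed to between 8.18 and 98 CPM with metformin, against 292 to 1810 CPM in basal chow livers, and their part was not tested. Without chow basal replicate 2 or metformin replicate 2, 1 call was left, and with length and GC trends removed the call of Nolc1 was lost (-0.38, adjusted p = 0.0661). On 6-week HFD 0 members were called (1.24% lower, 1.93% higher), with 9 at an unadjusted p below 0.05 and 2 by DESeq2, and Nhp2 had the largest value above 0 (log2 0.49, adjusted p = 0.0629).

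The difference between the metformin responses on 16-week HFD and on chow was tested as an interaction, and 5 members were called, all with the higher response on HFD (3.23% of all genes in that direction, 1.73% in the other). Nop58 had 0.92 ± 0.16 (adjusted p = 0.00339), from -0.42 on chow to 0.50 on HFD. Wdr43 had 0.51 ± 0.11 (adjusted p = 0.00906), with 31.5, 31.1 and 29 CPM in chow metformin libraries and 25.1, 26.2 and 28.6 CPM in those of 16-week HFD. Nop56 had 0.87 ± 0.21 (adjusted p = 0.0185), with 21.2, 22.5 and 20.8 CPM on chow and 27.9, 18.2 and 17.9 CPM on HFD. The other called members were Gnl3 and Ltv1. Nop58, Wdr43 and Nop56 were still called after removal of length and GC trends, while the calls of Gnl3 and Ltv1 were lost. That fit called 1.61% of all genes, in either direction. A fit of only the 4 groups of this test called 0 members and 0% of all genes. Nop58 and Wdr43 were called in each of 12 fits that left out a library. Without chow metformin replicate 1, chow basal replicate 2 or basal 16-week HFD replicate 2, 2 members were called, and without HFD metformin replicate 3, 10. The same test between 6-week HFD and chow called 0 members (0.00711% and 0.0355%), with 9 at an unadjusted p below 0.05 and 0 by DESeq2.

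**Figure D5:**
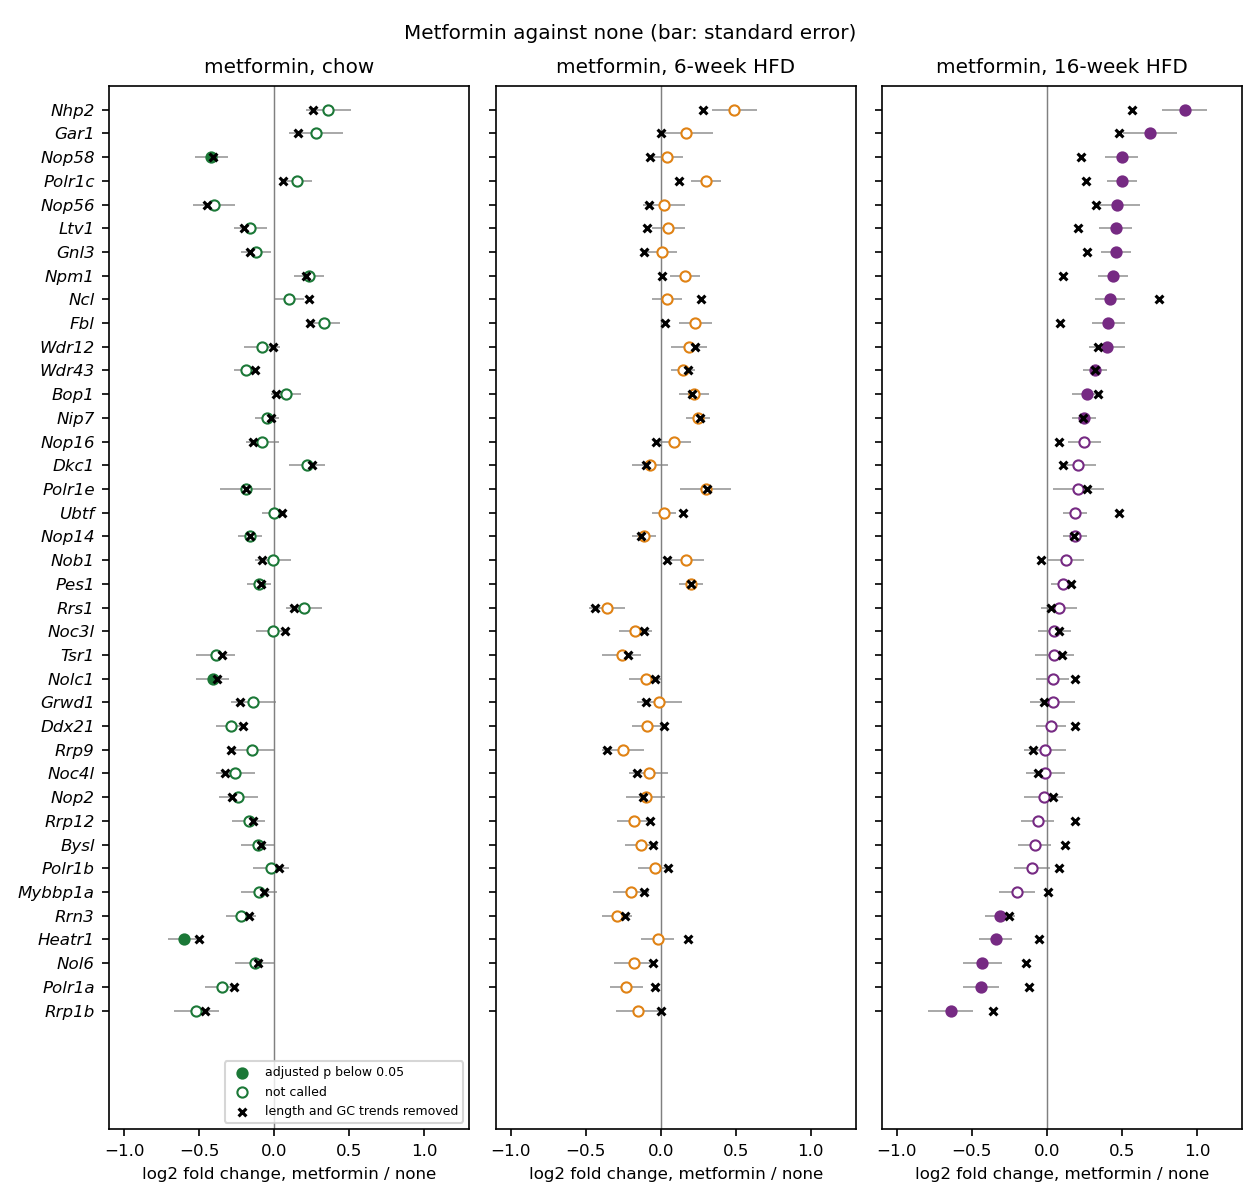
Log2 difference between metformin and basal livers (x axis) for the 39 members other than Myc (y axis) on chow, 6-week HFD and 16-week HFD, as circles with bars of 1 SE, and as crosses after removal of length and GC trends. On 16-week HFD Nhp2 (0.92) and Gar1 (0.69) lie farthest to the right, and most crosses of called genes lie closer to 0 than their circles, while that of Ncl (0.75) lies farther out. Filled circles mark adjusted p below 0.05.

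Set between the diets under metformin, 16-week HFD had 3 members lower and 2 higher than chow (9.25% and 11.2% of all genes), and the member median was -0.05. Rrp1b had 3.18, 3.71 and 3.41 CPM against 5.73, 5.18 and 6.31 CPM on chow (log2 -0.74, adjusted p = 0.000903). Mybbp1a had 39.5, 50 and 51 CPM against 59.4, 60.3 and 67.5 CPM (log2 -0.41, adjusted p = 0.0116), and Nip7, a late large subunit factor, had 17.3, 15.7 and 13.5 CPM against 12.4, 12.4 and 13.3 CPM (log2 0.29, adjusted p = 0.0126). None of these overlapped. Tsr1 (-0.44) was also lower and Rrp9 (0.51) also higher. Without 16-week HFD metformin replicate 1, the calls of Tsr1, Mybbp1a and Nip7 were lost and Ncl and Npm1 were called lower. With length and GC trends removed Npm1 and Nob1 were called lower as well, and the call of Rrp9 was lost. Without chow metformin replicate 3, 2 calls were left, and without chow metformin replicate 1 the call of Tsr1 was lost. A fit of only these 2 groups called 0 of the members and 2.25% of all genes. Under metformin 6-week HFD had 1 member lower than chow, Rrp12 (2.16% and 2.27% of all genes), with 9.68, 8.53 and 7.47 CPM against 12.2, 11.3 and 12.7 CPM (log2 -0.50, adjusted p = 0.00815), a call lost without replicate 3 of either group.

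Genes of the same pathway outside the members were read from wider lists, which were likewise drawn up with results of these data known. In basal livers, where 16.3% of all genes were lower and 16% higher, 22 of 47 other large subunit factors were lower on 16-week HFD and 1 higher, with a median of -0.35. Cebpz (-0.70) and the nucleolar GTPase Gnl2 (-0.76) had the smallest adjusted p. Of 42 other small subunit factors 15 were lower and 2 higher (median -0.20), led by Cirh1a (-0.85) and Wdr75 (-0.65), which act in the early processome. Of 8 other RNA polymerase I genes 3 were lower and 2 higher, and the lower ones included Twistnb, a polymerase subunit, at -0.82, and Taf1d, of its selectivity factor, at -0.83. The exosome, which trims precursor RNA, had 3 of 14 lower, near the share of all genes.

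Cytosolic ribosomal proteins were lower for 31 of 77 and higher for 0, with a median of -0.25, and at 120 min after insulin, where 13.6% of all genes were lower, for 64 of 77, with a median of -0.47. Of 20 aminoacyl-tRNA synthetases 5 were lower and 1 higher, against 16.3% and 16% of all genes. In the Myc network 5 of 12 were higher and 1 lower, with Mnt (1.5) and Mxd1 (1.0), both partners of Max that oppose Myc on E-boxes, having the smallest adjusted p. With metformin on 16-week HFD, where 16.9% of all genes were higher and 11.5% lower, 68 of the 77 ribosomal proteins were higher and 1 lower, with Rps26 at 1.12 and Rps14 at 0.90. Of the other factors, 24 of 47 for the large subunit were higher and 1 lower, 17 of 42 for the small subunit were higher and 2 lower, and 6 of 14 exosome genes were higher and 0 lower. Ribosomal protein genes share sequence with many processed copies, so single values of these genes are uncertain. Counts for the wider lists were not repeated after removal of length and GC trends.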

How the data were processed

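Per the labels, polyA RNA of whole liver was made into libraries with a TruSeq version 1 kit, which does not mark strand. The authors aligned paired reads to mm9 with TopHat 1.4.0 and used HTSeq (version not given in the sources used here) and DESeq2 1.0.18, per the submitters' processing notes. The deposited counts per gene were the basis of every result. The deposited signal values are counts that the authors normalized with CQN and DESeq2, per the file headers and names, separately for chow and 16-week HFD; they served 1 alternative, as log2(value + 1) in limma 3.58.1. The deposited gene models (mm9 refFlat) gave positions and exon lengths; their score field held only a placeholder, as deposited, and was not used.

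Groups came from titles and characteristics. Of 23227 genes, 3737 had no read and 14067 passed filterByExpr at its minimum count of 10. All 45 libraries were scaled by TMM and fitted together in edgeR 4.0.16 (R 4.3.3), with 1 coefficient per group and a quasi-likelihood F test for each of 26 comparisons. Benjamini-Hochberg adjustment was made within a comparison over all genes tested, and a gene was called below 0.05; "rose", "fell", "higher" and "lower" refer to such calls or to CPM as given. P values set each difference against the spread between libraries within groups. That spread was estimated over all 45 libraries, not only in the groups compared. CPM are TMM-scaled, log2 values have a prior count of 2 where taken per library, and errors are standard errors of the fit. The procedure was tested on simulated data in which all genes and libraries had the same spread and no length or GC trend. That test does not cover libraries with such trends or with a wider spread.

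The members and the wider lists were chosen with earlier results of these data known. Named with values in every library were the up to 3 called members with the smallest adjusted p in each comparison, and Nop58, Polr1b and Myc after insulin; Nop56 and Fbl in the basal diet comparison were added after their values were seen; other members are named with fold changes, and other genes as the 2 of a list with the smallest adjusted p. Alternatives were RLE scaling, no filter, the replicate number as a block, removal of length and GC trends (a spline with 5 degrees of freedom, with GC content known for 98.2% of genes) with and without that block, a fit of only the groups compared, DESeq2 1.42.0, the values normalized by the authors, omission of each library, and omission of replicates 4 to 6 at 30 min. Groups share replicate numbers, but no label says what a number stands for. Same-numbered libraries deviated together by correlations over 0.1 for all 3 pairs in 2 of 20 pairs of groups: basal and metformin on 6-week HFD (0.41, 0.16 and 0.3) and on 16-week HFD (0.24, 0.15 and 0.12). Only the data, and no label, speak for these pairs. Promoter sequences and motif counts are from RefSeq, build GRCm38.p6. A gene was held uncertain where 20% or more of its 40-base words occur in other transcripts.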

Additional observations from a re-analysis of the deposited data

Results flagged for a closer look

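For 5 members the response to metformin differed between 16-week HFD and chow by edgeR's test of the interaction in the fit of all libraries: the difference in log2 response was 0.92 for Nop58, 0.87 for Nop56, 0.62 for Ltv1, 0.58 for Gnl3 and 0.51 for Wdr43. The adjusted p was 0.00339, 0.0185, 0.0264, 0.02 and 0.00906 in the same order. After removal of length and GC trends the adjusted p was 0.0726 for Ltv1 and 0.0852 for Gnl3, and the values were 0.41 and 0.43. A fit of only the 4 groups called 0 of the 5 and 0% of all genes. Both terms use the basal groups, in which these genes were lower on 16-week HFD.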

How the results depend on the processing

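Counts of members called, in either direction, kept within 1.5 times of the reported count in the other settings and comparisons run. The exceptions were as follows. A fit of only the groups compared gave 11 for 16-week HFD against chow at 60 min, 0 for that contrast under metformin, 5 for 16-week against 6-week HFD, 2, 1 and 0 for insulin on chow at 15, 30 and 60 min, 0 for insulin at 30 min on 16-week HFD, 2 and 0 for metformin on 6-week and 16-week HFD, and 0 for the metformin interaction of 16-week HFD with chow. Shares of all genes called there were 14.1%, 2.25%, 6.76%, 1.42%, 0.477%, 1.34%, 0.207%, 5.65%, 0.109% and 0% in the same order. Removal of length and GC trends gave 4 for 6-week HFD against chow under metformin, 4 for 16-week against 6-week HFD, 1 and 5 for metformin on 6-week and 16-week HFD, and 3 for that interaction. Shares of all genes were 6.13%, 6.62%, 1.71%, 15.8% and 1.61% in the same order. With the replicate block added the counts were 4, 3, 1, 7 and 3, and insulin at 30 min on 16-week HFD gave 2. Their shares of all genes were 6.49%, 6.89%, 1.7%, 16.6%, 1.86% and 14.3% in turn. The replicate block alone gave 2 for 6-week HFD against chow under metformin and 2 for insulin at 30 min on 16-week HFD. It left 0 and 19 for metformin on 6-week and 16-week HFD and moved no other count past 1.5 times. Shares of all genes beside these counts were 5.09%, 12.3%, 3.43% and 29.8%. The block gave each replicate number the same effect in all groups. It therefore cannot test pairing within these 2 metformin contrasts, whose same-numbered libraries deviated together. DESeq2 gave 3 for 6-week HFD against chow under metformin, 2 for insulin at 120 min on chow and 2 for metformin on 6-week HFD. Of all genes it called 7.12%, 7% and 4.93% in turn. No filter gave 0 for insulin at 120 min on chow, with 3.03% of all genes called. The deposited normalized values gave 0 for insulin at 60 and 120 min on chow and 0 at 30 min on 16-week HFD. They called 0.953%, 6.83% and 0% of all genes in turn. Without replicates 4 to 6 that last contrast gave 3, with 12.4% of all genes called. The causes were not tested.

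Leaving out each library gave, for 16-week HFD against chow, 10 to 18 calls in basal livers, 8 to 11, 17 to 24, 15 to 23 and 14 to 17 at 15, 30, 60 and 120 min, and 2 to 7 under metformin. It gave 6 to 10 for 6-week HFD against chow, 0 to 1 for that contrast under metformin, and 2 to 6 for 16-week against 6-week HFD. For insulin on chow it gave 1 to 2, 0 to 0, 0 to 1 and 0 to 1 in order of time, and on 16-week HFD 0 to 0, 0 to 1, 0 to 0 and 0 to 0. For metformin it gave 1 to 3 on chow, 0 to 1 on 6-week HFD and 7 to 21 on 16-week HFD. The interactions stayed at 0 to 0, except metformin on 16-week HFD against chow, at 2 to 10. Leaving out replicate 3 of basal 6-week HFD reversed Myc between 16-week and 6-week HFD, to 0.66, against -2.7 without replicate 1 of basal 16-week HFD.

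Of the 9 members lower on 16-week HFD in all 5 comparisons, 9 remained under RLE scaling and DESeq2, 8 with no filter or the replicate block (both without Ddx21), 8 with trends removed (without Ncl), 7 with trends removed and the block (without Ncl and Npm1) and 7 in fits of only the groups compared (without Ddx21 and Wdr43). Of the 33 fits for all 5 comparisons that each left out 1 library, Npm1 kept its calls in 32, Tsr1 in 31, Ddx21 in 25 and each of the others in 33. RLE scaling moved the median of all genes by at most 0.02. With 3 libraries in most groups, a member not called is not shown to be equal between groups. Replicates differed by more than counting noise; Myc, with counts down to 42, is the least precise.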
